A study of Mus musculus with 17 samples.

Results

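MicroRNA levels in mouse kidney were compared between ischemia reperfusion injury (IRI) and sham surgery on days 7 and 10 after the operation. These are called the repair days below, which is a name for the days and not a measured state. The samples were chosen by their labels alone: 4 of the 17 samples of the series carried an IRI or sham label together with day 7 or day 10. All 569 mature mouse miRs on the array were measured in each, and 102 were called detected. The mice were of strain C57/BL6 and 10-12 weeks old, and IRI meant 30 minutes of warm ischemia. The labels give female mice, whereas the study's methods give males. Sham mice had surgery without ischemia. Each sample was kidney RNA pooled from 3 mice. There was 1 pool per surgery and day, so that no day has a replicate of its own, and mice within a pool cannot be told apart. Day 10 is not among the days that the study's results list.

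MicroRNAs are short RNAs that guide a silencing complex to messenger RNAs, mainly through the seed, bases 2 to 8 counted from the 5′ end. After ischemia, tubule epithelium is lost and regrows, while leukocytes enter and fibroblasts become active. Several miRs are textbook markers of these cells: miR-21 of injured epithelium and activated fibroblasts, miR-199a and miR-214 of mesenchymal cells, miR-192 and miR-194 of tubule epithelium, the miR-200 family of the epithelial state, and miR-146 and miR-155 of inflammatory signalling. A bulk kidney sample mixes all of these cells, and fewer cells of a type cannot be told apart from less of a miR per cell.

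The sequences of the miRs that the results turn on are given as the array's target column has them, 5′ to 3′, with the seed in capitals. The 5 whose mean ratio over both days passed the test come first, because they carry the main result.

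miR-21: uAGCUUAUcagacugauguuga
miR-15b: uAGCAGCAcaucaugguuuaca
miR-199a-3p: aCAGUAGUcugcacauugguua
miR-192: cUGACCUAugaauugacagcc
miR-805: gAAUUGAUcaggacauaggg

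No other detected miR shared the seed of miR-21, miR-199a-3p, miR-192 or miR-805. In RefSeq (GRCm38.p6) the miR-21 sequence lies at chr11:86584120-86584141 on the minus strand (Mir21a), miR-15b at chr3:69009775-69009796 on the plus strand and miR-192 at chr19:6264857-6264877 on the plus strand. The miR-199a-3p sequence is found at chr1:162217883-162217904 (Mir199a-2), at chr9:21496498-21496519 (Mir199a-1) and, with the same letters, at chr2:32318524-32318545 as miR-199b-3p, so that its probe reads all of these loci. For miR-805 no RefSeq mature miRNA had the same letters, so that no locus is given. Other named miRs, among them miR-143 and miR-30d, also lacked an identical entry. The seed of miR-15b is shared by 6 miRs on the array, of which 4 were detected. The other detected ones are shown because their ratios differed from that of miR-15b although the seed is the same.

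miR-15a: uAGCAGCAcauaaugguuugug
miR-16: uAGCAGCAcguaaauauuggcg
miR-195: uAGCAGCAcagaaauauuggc

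miR-146a and miR-146b are shown because they share a seed and are set side by side in the comparison with the late days, and the miR-200 family because it holds the lowest mean ratio and has 2 seeds.

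miR-146a: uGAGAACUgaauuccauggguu
miR-146b: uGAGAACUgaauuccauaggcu
miR-200a: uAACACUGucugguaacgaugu
miR-141: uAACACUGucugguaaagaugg
miR-200b: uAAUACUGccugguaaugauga
miR-200c: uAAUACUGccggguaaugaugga
miR-429: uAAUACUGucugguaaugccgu

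Each array held the pools of 1 day, IRI in Cy3 and sham in Cy5. No dye swap was made. A bias of the dyes at a probe therefore cannot be told apart from IRI against sham in any mean ratio below, whereas a bias that is equal on all arrays cancels when the ratio of one set of days is compared with that of another. Control probes were kept out of the fit. The spike-in probe PUC2PM gave a log2 ratio of -2.14 and -2.03 on days 7 and 10, and the 5S ribosomal RNA probes gave -0.31 to 0.03 on day 7 and -1.39 to -0.61 on day 10. The spike-in probe a-PUC2PM gave -2.17 and -2.04, and the remaining spike-in probes (PUC2PM-20B and its variants) lay between -0.82 and 0.85. Some of these ratios are as large as the called lower ones of miR-192 and miR-805, and their part in any ratio was not tested. The empty spots of the IRI channel had a median intensity of 265.8 on day 7 and 515.9 on day 10, against 185.5 to 390.2 on the other days, and those of the sham channel 36.9 and 37.3. The number of miRs above background (3 median absolute deviations over the empty spots' median) was 372 and 124 in the IRI pools and 175 and 199 in the sham pools, in the order of the days. Of the detected miRs, 96 were above background in all 4 pools. The 6 spots of a detected miR had a median SD of 0.12 on day 7 and 0.11 on day 10 on the log2 ratio scale. This spread covers the array only, not the mice.

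The miRs past the threshold of the test were miR-21, miR-15b and miR-199a-3p, which were higher in IRI, and miR-805 and miR-192, which were lower. They were not all of the most different ones, since miR-689 and miR-200a had means of 2.10 and -1.70 that did not pass. The mean of the log2 IRI/sham ratios of days 7 and 10 was tested against 0 with limma on the ratios of all 8 arrays with both surgeries, with a mean for each of the early (1, 3 and 5), repair and late days (14, 21 and 30), so that the error rests on the spread within these sets of days. Of the 102 detected miRs, 3 were higher in IRI (2.94%) and 2 lower (1.96%) at an adjusted p under 0.05, and 32 had an unadjusted p under 0.05. When the error was taken from the arrays of days 7 and 10 alone, 13 were higher and 13 lower. Without the array of day 10, 0 miRs passed in either direction. Both IRI pools were above both sham pools in 19 detected miRs (18.6%) and below both in 21 (20.6%), the shares against which each such statement below is read. With 2 arrays an exact sign-flip test of a single miR cannot give a p below 0.5, so that each call leans on the error shared across miRs and days.

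miR-21, which rises in many injured organs, gave a normalized intensity of 37150 in the IRI pool of day 7 and 38280 in that of day 10, against 10670 and 3692 in the sham pools. Both IRI pools were above both sham pools, and the IRI levels differed little from each other while the sham levels differed more. The log2 ratio was 1.80 ± 0.05 on day 7 and 3.37 ± 0.06 on day 10 (SE over 6 spots), with all spots of both arrays above 0. Its mean was 2.59 ± 0.37 (SE from limma, 2 arrays), a 6.01-fold higher level in IRI, with an adjusted p of 0.0076 by limma. Without the array of day 10 the ratio was 1.80 and the adjusted p 0.252, and without a filter on weak miRs the adjusted p was 0.102.

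miR-15b, a member of the miR-15 and miR-16 family that restrains cell cycle genes, gave 4711 and 3316 in the IRI pools and 1977 and 626.5 in the sham pools of days 7 and 10. The groups did not overlap. The log2 ratio was 1.25 ± 0.05 and 2.40 ± 0.04 (SE over 6 spots), and the mean 1.83 ± 0.31, with an adjusted p of 0.013 by limma. The call was lost without the array of day 10 (1.25, adjusted p 0.402), with background subtracted (0.0888) and without a filter (0.102). The difference was not particular to the repair days: on the other 6 arrays the ratio lay between 1.14 and 1.74, and a constant bias of the dyes at this probe would look the same. The other members with its seed had smaller means. miR-15a gave 0.65 ± 0.34, miR-195 gave 0.17 ± 0.26 and miR-16, whose levels were 8697 and 8604 in IRI and 8640 and 8733 in sham, gave -0.01 ± 0.22. None of these passed the test, and the differences between members were not tested. In RefSeq one of the loci of miR-16 (Mir16-2, chr3:69009918-69009939) lies next to miR-15b on the same strand, and the other (Mir16-1, chr14:61631936-61631957) lies next to miR-15a (chr14:61632075-61632096).

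miR-199a-3p, a miR of mesenchymal cells, gave 5137 and 4235 in the IRI pools and 1648 and 1064 in the sham pools. The groups did not overlap, and the ratio differed less between the days than that of miR-21 or miR-15b, at 1.64 ± 0.05 and 1.99 ± 0.06. The mean was 1.82 ± 0.36, with an adjusted p of 0.024 by limma. The call was lost with background subtracted (adjusted p 0.211), without a filter (0.161) and without the array of day 7 (0.153), day 10 (0.402) or day 14 (0.058). Its neighbour on chromosome 1, miR-214 (chr1:162223438-162223459), gave 3451 and 4258 in IRI and 1071 and 1762 in sham. The IRI pools were above both sham pools here too. The ratios were 1.69 and 1.27, and the mean of 1.48 ± 0.61 did not pass (adjusted p 0.13 by limma). On the other days the ratio of miR-214 ranged from -0.34 to 2.36, and this wide range enters its error.

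miR-192, which is enriched in kidney tubules, gave 3475 and 4154 in the IRI pools and 6691 and 11640 in the sham pools. Both IRI pools were below both sham pools. The ratio was -0.95 ± 0.04 and -1.49 ± 0.05, the mean -1.22 ± 0.28, a 2.32-fold lower level, and the adjusted p 0.044 by limma. The adjusted p was 0.0526 with the median of the spots, 0.229 with background subtracted, 0.161 without a filter, and 0.0629 to 0.506 without the array of any 1 of the days from 7 to 30. miR-194, which is encoded beside miR-192 (Mir194-2, chr19:6264658-6264679) and once more on chromosome 1, gave 2116 and 1325 in IRI and 3348 and 2393 in sham. The IRI pools were again below both sham pools. The mean ratio of -0.76 ± 0.26 had an adjusted p of 0.0958 by limma. The relative miR-215, at 3 mismatches from miR-192, was not detected.

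miR-805 gave the second-lowest mean ratio of the detected miRs. Its levels were 3009 and 9154 in the IRI pools and 8990 and 24080 in the sham pools of days 7 and 10. Within each day IRI was below sham, but the IRI pool of day 10 was above the sham pool of day 7, so that the groups overlap when the days are not paired. The ratio was nearly equal on the days, at -1.58 ± 0.02 and -1.40 ± 0.03, with a mean of -1.49 ± 0.32 and an adjusted p of 0.033 by limma. The call was lost with background subtracted (adjusted p 0.211), without a filter (0.161) and without the array of day 7 (0.218), day 10 (0.402) or day 14 (0.0747). When the pairing of the pools on an array was dropped (no replicate block), the adjusted p was 0.117 for miR-805 and 0.0922 for miR-192, and 0 miRs were called lower.

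**Figure D1:**
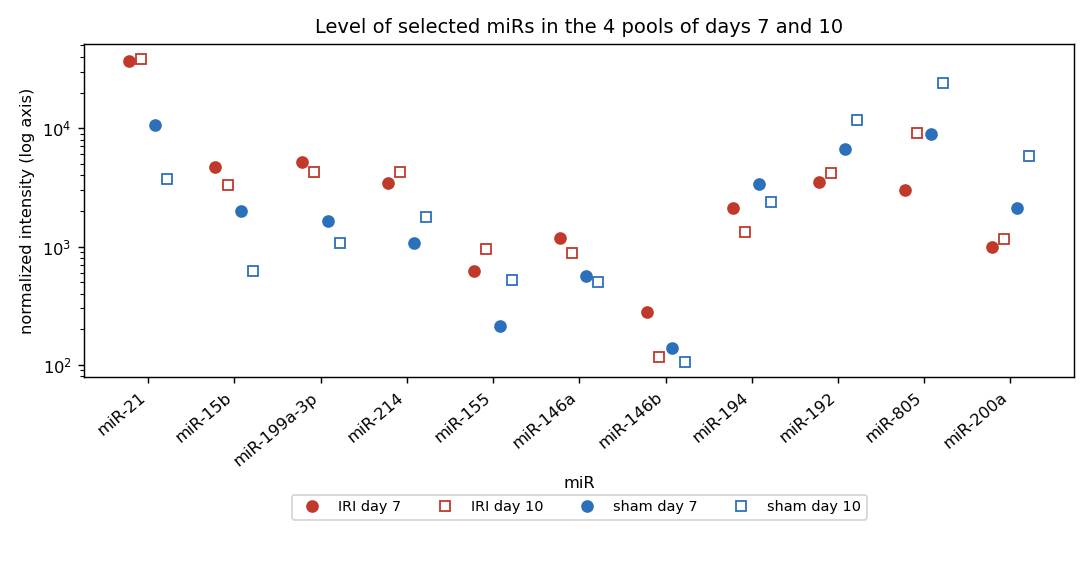
Normalized intensity on a log axis of 11 miRs in the pools of IRI (red) and sham (blue) on day 7 (filled circles) and day 10 (open squares), 1 pool per point and no error bar. For miR-21 the IRI pools sit at 37150 and 38280, both above the sham pools at 10670 and 3692, and for miR-192 both IRI pools lie below both sham pools.

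The lowest mean was that of miR-200a. This miR keeps epithelial cells in their state by restraining the ZEB repressors. It gave 990.2 and 1157 in the IRI pools and 2098 and 5765 in the sham pools. Both IRI pools were below both sham pools, and the ratio was -1.08 ± 0.05 on day 7 and -2.32 ± 0.05 on day 10. The mean of -1.70 ± 0.49 did not pass the test (adjusted p 0.0696 by limma). It did pass with the arrays of days 7 and 10 alone, with an adjusted p of 0.0192. On the other days its ratio ranged from -1.61 to 0.76. miR-141, which differs from miR-200a by 2 mismatches, was not detected. The members with the other seed of the family had smaller ratios. miR-200b gave a mean of -0.46, miR-429 gave -0.52 and miR-200c gave 0.24, none past the test. Of the family, 3 of the 4 detected members were lower on both days (39.2% of all detected miRs), 1 was higher on both (37.3% of all), and the median of the means was -0.49, against -0.01 over all detected miRs.

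The ratios of the days had the same sign for 78 of the 102 detected miRs (76.5%), with 38 higher on both days (37.3%) and 40 lower on both (39.2%). Their correlation across the detected miRs was 0.75. miRs are not independent replicates, and the arrays share the dye orientation. Of the 28 pairs of arrays the correlations ran from -0.13 to 0.90, with 0.80 between days 7 and 14, 0.76 between days 3 and 7 and -0.02 between days 1 and 7. A log2 ratio of at least 1 in size on both days was seen in 7 miRs with IRI higher (6.86%) and 2 with IRI lower (1.96%). The former were miR-21, miR-689, miR-15b, miR-199a-3p, miR-762, miR-214 and miR-1224, and the latter were miR-805 and miR-200a, all picked for this size. In 70 miRs the ratio was more than 2 spot SEs from 0 on both days, and in 60 of these the signs were equal. The ratios of the days differed by more than 2 SEs of the spots in 75 miRs, so that most miRs differed between the arrays of the 2 days by more than spot error.

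**Figure D2:**
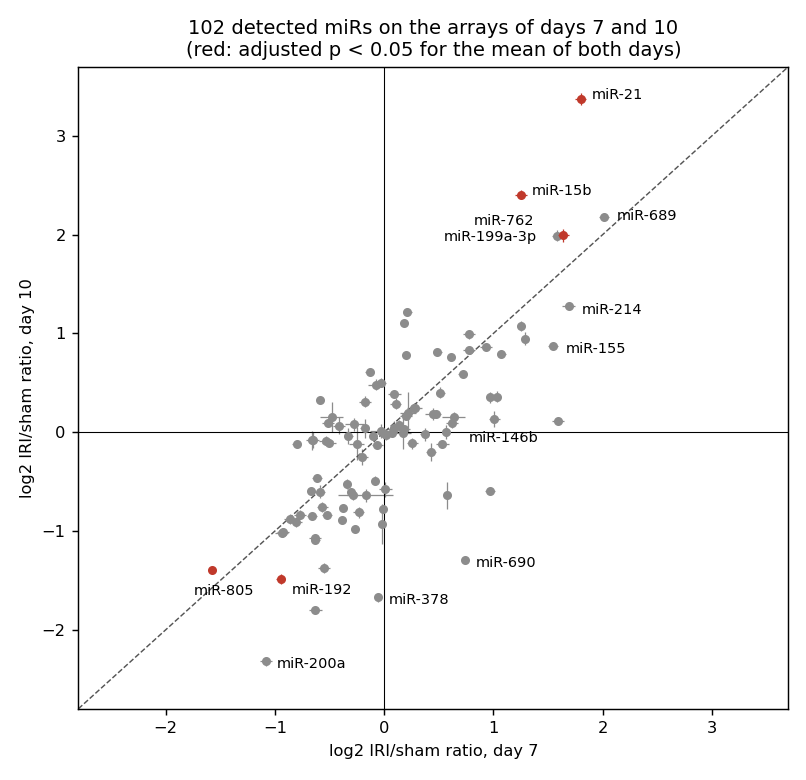
Log2 IRI/sham ratio on day 7 (x axis) and day 10 (y axis) of the 102 detected miRs, with bars of 1 SE over 6 spots and miRs with an adjusted p under 0.05 in red. miR-21 is far above the dashed line of equal ratios, at 1.80 and 3.37, while miR-690 and miR-378 lie below it.

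The largest gaps between the days were in miR-690, miR-378, miR-21, miR-466f-3p and miR-574-5p, chosen for that size and given without a test. The ratio of miR-690 was 0.74 on day 7 and -1.30 on day 10. That of miR-378, which is encoded within the metabolic regulator gene Ppargc1b, was -0.06 and -1.67. miR-466f-3p gave 0.97 and -0.59, and miR-574-5p gave 1.59 and 0.11. In miR-378 the IRI pools were at 527.7 and 743.8 and the sham pools at 548.6 and 2368, so that the sham pool of day 10 stood apart from the other 3.

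The lists of miRs were described by their counts. Among 13 injury and fibroblast miRs, 5 were detected. Of these, 2 passed the test as higher in IRI, miR-21 and miR-199a-3p, where 2.94% of all detected miRs did, and 4 of 5 were higher on both days, where 37.3% of all were. The median of the means was 1.48 over these 5, 0.69 over the members that reached 200 in any sample, and -0.01 over all 13. miR-132, which is induced by the transcription factor CREB, gave 0.69 ± 0.26 and did not pass. miR-34a, a p53 target, gave -0.28 on day 7 and 0.08 on day 10. All 4 detected leukocyte and inflammation miRs had ratios above 0 on both days, where 37.3% of all did, with a median of 0.92. For miR-146b on day 10 neither pool was above background, so that its sign on that day is not a measured one. By the test, 0 of them passed the adjusted threshold by limma (2.94% of all called higher), with 3 at an unadjusted p under 0.05, as had 32 of all 102.

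miR-155, a miR of activated leukocytes, gave 616.4 and 950.6 in the IRI pools and 211.4 and 518.8 in the sham pools. Both IRI pools were above both sham pools, the mean ratio was 1.21 ± 0.39 and the adjusted p was 0.0884 by limma. miR-150, a miR of mature lymphocytes, gave 639.7 and 367.9 in IRI and 335.4 and 201.7 in sham, with a mean of 0.90 ± 0.24 and an adjusted p of 0.0598. miR-142-3p, miR-142-5p and miR-223, the defining miRs of blood leukocytes and myeloid cells, were not detected on this array. The summed level of the whole leukocyte list was 3298 and 2594 in the IRI pools and 1575 and 1614 in the sham pools. The erythroid miRs, which mark blood in the tissue, summed to 620.1 and 382 in IRI and 893.7 and 395.7 in sham, so that they were not higher in IRI. Of the miRs of muscle, liver and neurons, 1 of 9 was detected, miR-122, and it was above background in 1 of the 4 pools.

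miR-146a, which is induced by NF-kB and dampens its upstream signalling, gave 1179 and 874.4 in the IRI pools and 560.3 and 505.2 in the sham pools. Both IRI pools were above both sham pools. Its mean ratio was 0.93 ± 0.32 (adjusted p 0.0958 by limma). miR-146b, with the same seed and at 2 mismatches, was not above background in either sham pool and was so in the IRI pool of day 7 only. No bound on its change over both days is given for that reason. The fitted mean was 0.57 ± 0.29, from levels of 278.1 and 115.8 in IRI and 138.2 and 105.5 in sham, and had an adjusted p of 0.215.

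Of the proliferation miRs, those of the cluster of miR-17 and its paralogs, 6 of 13 were detected, 4 were higher on both days (37.3% of all detected miRs) and 0 passed by limma (2.94% of all called higher), with a median of 0.35, or 0.11 over all 13 with no filter. An unadjusted p under 0.05 was found for 2 of them and for 32 of all 102. The members nearest to the threshold were miR-25 and miR-92a, which are relatives in sequence. miR-25 gave 2190 and 1180 in the IRI pools and 897 and 612.5 in the sham pools, a mean of 1.12 ± 0.30 and an adjusted p of 0.0598. miR-92a gave 2131 and 1094 against 1246 and 550.8, a mean of 0.88 ± 0.29 and an adjusted p of 0.0884. For miR-25 both IRI pools were above both sham pools, whereas for miR-92a the IRI pool of day 10 was below the sham pool of day 7. miR-20a gave 0.64 on day 7 and 0.15 on day 10, and miR-106b 0.45 and 0.18.

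Among the miRs of tubule epithelium, all 3 detected (miR-192, miR-194 and miR-187) were lower on both days, against 39.2% of all detected miRs, and 1 passed as lower, where 1.96% of all did. Their median was -0.76, and over all 6 listed members with no filter it was -0.24. miR-187 gave -0.80 on day 7 and -0.12 on day 10. Of the miR-30 family, abundant in kidney epithelium, 6 of 7 were detected, 3 were lower on both days (39.2% of all detected miRs) and 1, miR-30b, was higher on both (37.3% of all). miR-30a gave a mean of -0.57, miR-30e -0.63, miR-30d -0.46 and miR-30b 0.49, none past the test. The probes of miR-30d and miR-30e each differ from that of miR-30a by 1 mismatch, so that values may share signal.

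The let-7 family, which favours differentiated cells, had ratios that depended on the normalization. All 9 members were detected, 6 were lower on both days (39.2% of all detected miRs) and 2, let-7i and miR-98, were higher on both (37.3% of all). None passed limma's test, against 1.96% of all called lower and 2.94% called higher, and 6 had an unadjusted p under 0.05, as had 32 of all 102. let-7c gave 27610 and 27800 in the IRI pools and 52910 and 56350 in the sham pools, a mean of -0.98 ± 0.37 with an adjusted p of 0.12 by limma. let-7b gave a mean of -0.97, let-7f of -0.87 and let-7a of -0.86. These probes differ from a relative by 1 mismatch and may share signal. The median of the family was -0.80. It was -0.38 in the authors' processed values, -0.38 with plain background subtraction and -1.47 with median scaling in place of loess, under which let-7a, let-7b, let-7c and let-7f had adjusted p-values under 0.05. The higher and lower calls over all miRs were then 8 and 10, in place of 3 and 2.

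**Figure D3:**
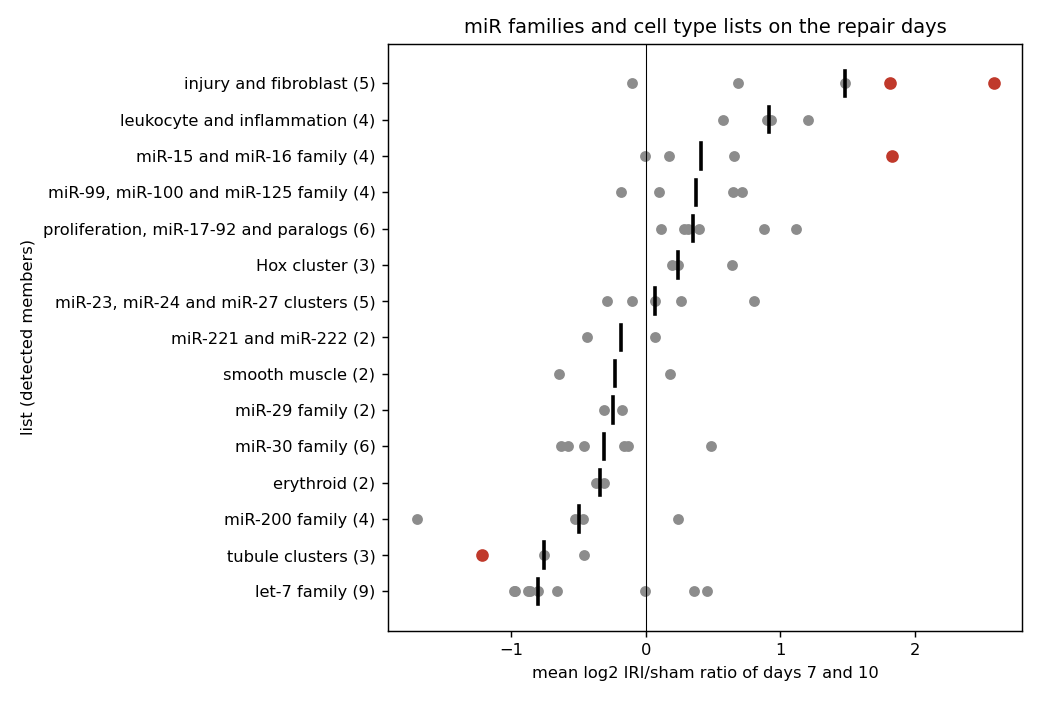
Mean log2 IRI/sham ratio of days 7 and 10 (x axis) of the detected members of each list (1 point per miR, red where the adjusted p was under 0.05), with the median of the list as a black bar. The injury and fibroblast list has the highest median, 1.48, although over members that reached 200 in any sample it was 0.69 and below the leukocyte list at 0.90, and the let-7 family the lowest, -0.80, although in the authors' processed values and with background subtracted let-7 was at -0.38 and the tubule clusters were lower, at -0.89 and -0.84.

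The other lists held no miR past the test. In the Hox cluster, miR-10a gave 0.19 on day 7 and 1.11 on day 10, miR-10b -0.13 and 0.61, and miR-196a 0.11 and 0.29. miR-10a and miR-10b differ by 1 mismatch. Of the clusters of miR-23, miR-24 and miR-27, found in vessels and epithelium, all 5 members were detected. miR-27a had the largest mean, 0.81 ± 0.33, with levels of 3584 and 1659 in IRI and 2093 and 930.6 in sham, while miR-24 gave -0.29, miR-23a 0.26 and miR-23b -0.10. miR-125a-5p gave 0.21 on day 7 and 1.22 on day 10, and miR-125b-5p 0.49 and 0.81. The remaining named members of that family, miR-99a and miR-99b, had means of -0.18 and 0.10.

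The matrix regulators miR-29a and miR-29c had means of -0.31 and -0.17, and the vessel wall miRs miR-222 and miR-221 of -0.44 and 0.07. The endothelial miR-126-3p gave -0.51 on day 7 and 0.09 on day 10, from 8317 and 10240 in IRI and 11850 and 9619 in sham. The groups overlapped. The smooth muscle miRs miR-143 and miR-145 gave -0.64 and 0.18, and the erythroid miR-451 and miR-486 gave -0.31 and -0.37. The hypoxia miR miR-210 was not detected. Of the 9 miRs that the study names, chosen by its authors possibly on these samples and therefore not independent evidence, all were detected, 5 were higher and 4 lower on both days (37.3% and 39.2% of all detected), and 2 passed in each direction (2.94% and 1.96% of all).

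The repair days were then compared with the early and late days, a contrast in which a dye bias equal on all arrays cancels. Against the early days, 0 of the 102 miRs passed (0%) by limma, and 5 had an unadjusted p under 0.05. Against the late days, 1 passed, lower on the repair days (0.98%), and 11 had an unadjusted p under 0.05. It was miR-146b, whose ratio was 1.01 and 0.13 on days 7 and 10 and 3.57, 3.02 and 3.23 on days 14, 21 and 30. The repair and late days did not overlap. Because miR-146b was at or near background on the repair days, above it in 1 of the 4 pools, the ratio there has no exact value. It also counts as detected through the late IRI pools, the group in which it was high. That choice favours a difference, and its call is given as a description only. With no filter its adjusted p was 0.0282 by limma, from the same values near background. Its adjusted p was 0.0053 by limma, 0.102 without the array of day 10 and 0.112 with plain background subtraction. No other miR passed against the late days. miR-146a showed ratios of 1.07 and 0.79 on the repair days and of 2.02, 2.37 and 3.30 on the late days, a difference of -1.63 ± 0.41 that did not pass (adjusted p 0.168).

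miR-805 was lower still on the late days, with ratios of -3.03, -2.29 and -3.75, and the repair days lay above them by 1.54 ± 0.41 (adjusted p 0.168). miR-21 was higher in IRI on all 8 arrays, with ratios of 1.87 to 3.03 on the days other than 7 and 10, and the repair mean differed from the early mean by 0.40 ± 0.48 and from the late mean by -0.19 ± 0.48. miR-192 gave -0.30, -0.69 and 0.17 on the early days, and its repair mean differed from the early mean by -0.94 ± 0.37 (adjusted p 0.625), and it differed from the late mean by 0.04 ± 0.37.

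**Figure D4:**
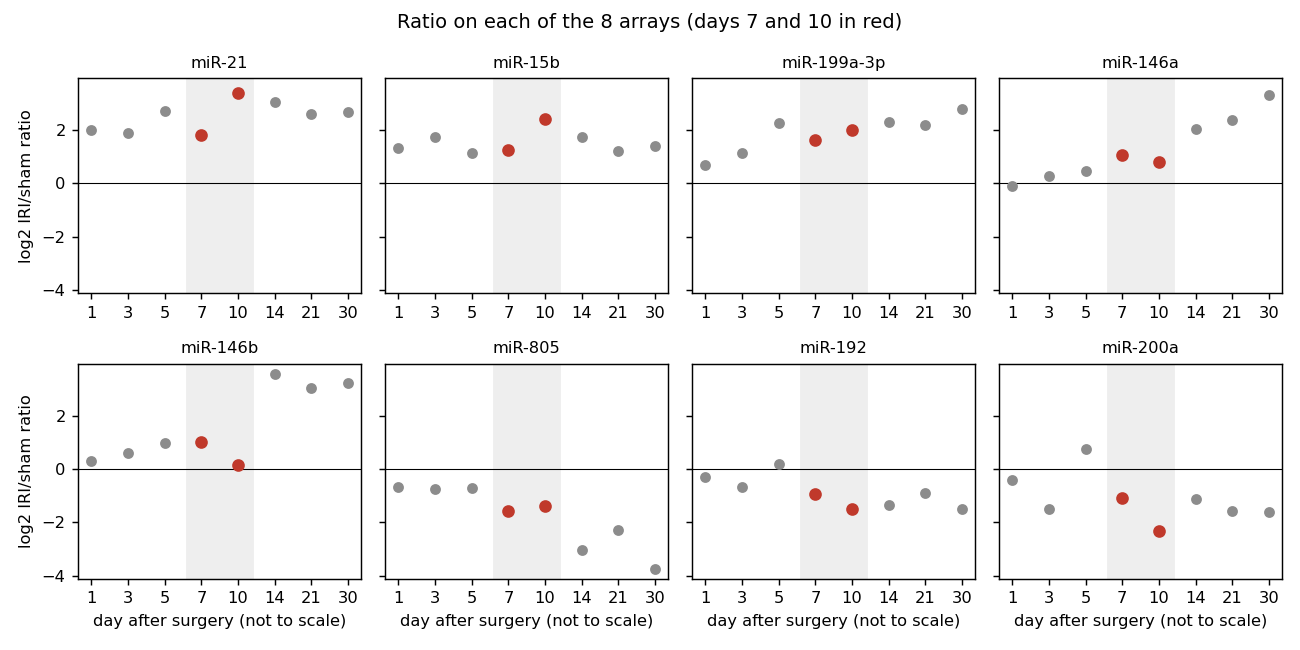
Log2 IRI/sham ratio (y axis) of 8 miRs on each of the 8 arrays, by day after surgery (x axis, not to scale), with days 7 and 10 in red on grey. miR-146b lies at 1.01 and 0.13 on the repair days and above 3 on days 14, 21 and 30, whereas miR-21 and miR-15b are above 1 on each day.

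The authors' processed values gave ratios that correlated with those from the scanner intensities by 0.95 on day 7 and 0.90 on day 10 across the detected miRs. With these values 89 miRs were detected, and 6 were called higher and 7 lower, in place of 3 and 2. All 5 miRs called from the scanner intensities were among them. For miR-21 the processed values were 34893 and 32101 in IRI and 8360 and 2816 in sham, and the mean ratio was 2.71. For miR-192 they were 3301 and 2810 against 6282 and 7072, with a mean of -1.17. miR-25, miR-150 and miR-689, higher in IRI, and miR-194, lower, also had adjusted p-values under 0.05 by this route, at 0.0436, 0.0462, 0.0488 and 0.0436. The remaining lower calls were miR-22, miR-185, miR-103 and miR-107, at 0.0436, 0.0436, 0.0475 and 0.0488.

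**Figure D5:**
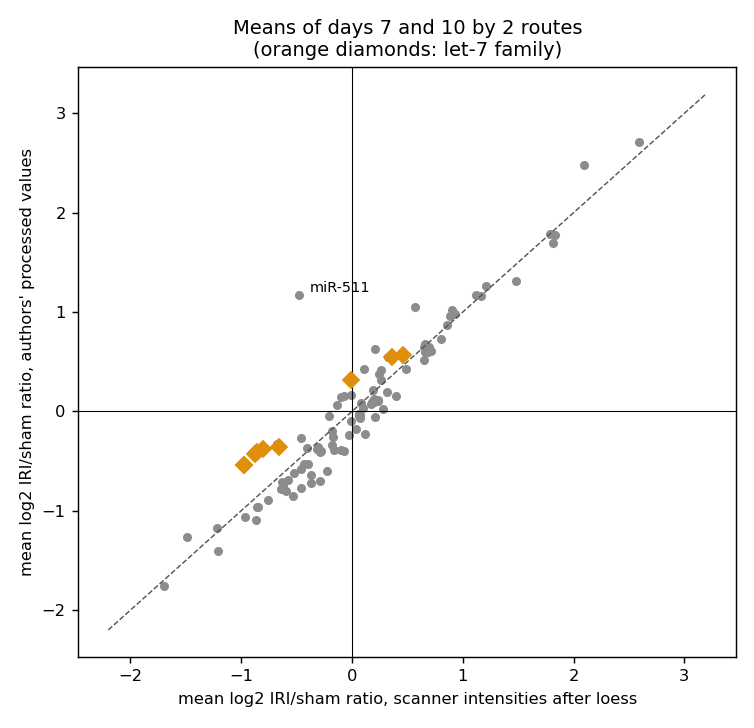
Mean log2 IRI/sham ratio of days 7 and 10 from the scanner intensities (x axis) and from the authors' processed values (y axis) for the 102 detected miRs, with the let-7 family as orange diamonds and equal values on the dashed line. The let-7 members lie above the line, with a median of -0.38 against -0.80, and miR-511 is the one point far from it.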

How the data were processed

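MicroRNA arrays of kidney RNA were analysed, with probes for 569 mature mouse miRs in 6 spots each. The authors deposited mean spot intensities as scanned, without background correction, and a table of processed signal values on a linear scale, whose normalization the sources used here do not state. Digit-group commas in the scanner files were removed. From the intensities, background was corrected with limma's normexp (offset 50), fitted per channel, and the 6 spots averaged. The channels of an array were matched by loess (span 0.3, control probes at weight 0), and quantile normalization was applied to the mean log2 intensities of the 8 arrays, so that levels across days rest on that step. At the detected miRs the loess removed a log2 IRI/sham shift of 0.71 to 1.72 on day 7 and of 1.4 to 2.42 on day 10. These shifts are as large as several of the called ratios. A miR was detected at a mean of at least 200 over the 16 IRI and sham samples. For the processed values, log2(value + 50) was used and the ratios were centred on their median.

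Log2 IRI/sham ratios were fitted with limma 3.58.1 (R 4.3.3), with 1 mean for each set of days, 5 residual and 3.87 prior degrees of freedom, and Benjamini-Hochberg adjustment over the detected miRs at a threshold of 0.05. The ratio pairs the IRI and sham pools of an array, which the labels give, and the fit with no replicate block is an alternative. Because each day has a single pool per surgery, p-values measure the spread between days, which holds real change as well as error. The naive sample was not used. Dixon's test of single arrays and an exact binomial interval for the share of equal signs were also used. Of the mature sequences, 462 of 569 matched a RefSeq mature miRNA letter for letter. Those of miR-805 and miR-689 did not. The steps were tested on simulated data.

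The members and lists were chosen with earlier results of these data known. The miRs named are up to 12 in each direction past the threshold with equal signs on both days, the 9 that the study names, up to 4 detected members of each list with the largest mean ratio in size, up to 5 in each direction past the threshold against early or late days, and the 5 with the largest gap between days 7 and 10. miR-689, miR-762, miR-1224, miR-511, miR-34a, let-7i, miR-98, miR-22, miR-185, miR-103 and miR-107 were named after their values were seen. Alternatives were the processed values, background subtraction, median scaling, a floor of 200, other filters, the median of the spots, no replicate block, the arrays of days 7 and 10 alone, an intensity trend with robust variance, and each array left out.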

Additional observations from a re-analysis of the deposited data

Results flagged for a closer look

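On 9 occasions a single array stood apart from the other 7 in the ratio of a named miR by Dixon's test, among 61 miRs examined. Chance flags about 1 in 20 sets that were not chosen by their values. Some of the 61 were, miR-511 and the 5 with the largest gap between days 7 and 10 among them, so that this rate does not hold for the whole and the number is a description. Of these, 2 were on day 10. The log2 IRI/sham ratio of miR-15b on day 10 was 2.40, against 1.14 to 1.74 on the other days. That of miR-511 on day 10 was -0.93, against -0.02 to 0.08. The other 7 lay outside the repair days: miR-155 on day 5 (2.84), miR-29a on day 1 (0.85), miR-29c on day 1 (1.93), miR-27a on day 30 (1.95), miR-221 on day 5 (0.83), miR-122 on day 30 (-5.73) and miR-574-5p on day 1 (-2.91).

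The value of miR-511 rests on 1 spot. On day 10 that spot read 5128 in the IRI channel and 2169 in the sham channel, whereas the other 5 spots read 633.5 to 745 and 37.05 to 44.36. The processed values of that day were 312 in IRI and 11 in sham, a ratio of the opposite sign (2.44). On day 7 the spots read 277.9 to 293.2 in IRI and 32.22 to 40.35 in sham. miR-511 passed the detection minimum through this spot.

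The fitted ratio of miR-146b differed between the repair and late days by -2.70. It passed limma's test, but it counts as detected through the late IRI pools, in which it was high, and is given as a description only. On the repair days its sham pools and the IRI pool of day 10 were not above background, so that the size of the difference is not exact.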

How the results depend on the processing

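The number of calls changed with the normalization and with the error used. The repair mean was called higher and lower in IRI for 6 and 7 miRs in the authors' processed values, 1 and 0 with background subtracted, 8 and 10 with median scaling in place of loess, 0 and 0 with no filter (569 miRs tested), and 13 and 13 with the arrays of days 7 and 10 alone. The median of the spots called 1 lower. In the paired fit 2 were lower, and with no replicate block 0 were. Against the late days 0 were lower in the processed values, where miR-146b was below the detection minimum and so was not tested. With background subtracted 0 were lower, and with no filter 1 was higher and 3 lower. Leaving out each array in turn gave 0 to 9 higher and 0 to 4 lower in the repair mean, 0 to 3 higher against early days, and 0 to 1 higher and 0 to 2 lower against late days. Without the array of day 10, 0 were called in the repair mean in either direction, and without that of day 7, 0 were lower. Without the array of day 1, 9 were higher and 4 lower, and against late days 1 was higher and 2 lower. Without that of day 3 or of day 5, 6 were higher, and without day 3, 3 were higher against early days. Without day 14, 0 were lower, and without day 21 or day 30, 1 was. The lone array left was assumed to vary like the others. The share of equal signs on both days did not leave its 95% exact binomial interval under any alternative, and no called ratio of a named miR changed sign. That interval takes miRs as independent, which they are not. Several alternatives also leave the ratios of both days unchanged by design, so that the share is a description and no support. The ratios of the 5 called miRs ranged, over all alternatives, from 1.80 to 3.37 (miR-21), 1.25 to 2.40 (miR-15b), 1.64 to 1.99 (miR-199a-3p), -1.87 to -1.27 (miR-805) and -1.49 to -0.95 (miR-192). The causes were not tested. Over background, 124 miRs were measured in IRI on day 10 and 372 on day 7.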

Other observations

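Outside the lists, miR-689, miR-762 and miR-1224 are described, chosen after their values were seen for log2 ratios of at least 1 on both repair days. miR-689 gave 575 and 1229 in the IRI pools and 142.6 and 270.8 in the sham pools, with ratios of 2.01 and 2.18, against -2.50, 0.66 and -1.44 on days 1, 3 and 5 and 0.87, 1.38 and 2.03 on days 14, 21 and 30. miR-762 gave 2296 and 2356 in IRI and 767.1 and 593.2 in sham, with ratios of 1.58 and 1.99, against -0.85, 0.79 and -1.65 on those early days and 0.55, 0.16 and 0.26 on the late days. miR-1224 gave 1.26 and 1.07 on days 7 and 10, against -1.99, -0.10 and -1.36 early and 0.38, 0.10 and -0.23 late. In each, both IRI pools were above both sham pools, as in 18.6% of all detected miRs, the repair mean exceeded the early mean by 2.31 to 3.19 on the log2 scale, and the adjusted p of that difference was 0.137 by limma. The repair mean differed from the late mean by 0.67 for miR-689, 1.47 for miR-762 and 1.08 for miR-1224, with adjusted p-values of 0.796, 0.376 and 0.469, so that a rise particular to the repair days was not shown.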
